A study of Mus musculus with 2 samples.

Results

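The transcripts of 7 complement genes were followed in kidney cells of mice with nephrotoxic serum nephritis (NTN). C1qa, C1qb and C1qc encode the 3 chains of C1q, C3 encodes the central component of the cascade, Cfp encodes properdin, and C3ar1 and C5ar1 encode the receptors of the split products C3a and C5a. The genes were taken by name, and all 7 were among the 20299 genes of the count matrix. One droplet-based single-cell library was made from WT mice and one from Vsir-/- mice, which lack the immune checkpoint VISTA, so each genotype is represented by a single library and the genotypes could not be tested against each other. Both groups were 8-week-old C57BL/6 mice with NTN, which is induced by preimmunization with 200 μg of sheep IgG in adjuvant and, 4 days later, sheep serum against the glomerulus. The labels give a serum dose of 2 μL per g of body weight for both groups, and the study's methods give a higher one. The labels describe the WT library as sorted CD45+ cells and the Vsir-/- library as kidney cells of every kind, whereas the study's methods describe a sort of CD45+ cells. The number of mice pooled in each library is not given in the sources used here.

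C1q recognizes antibody bound to antigen and starts the classical pathway of complement, which leads to the cleavage of C3. Properdin stabilizes the C3 convertase of the alternative pathway, which uses factor B and amplifies this cleavage. Most complement proteins of plasma come from the liver, but C1q is made mainly by macrophages and related myeloid cells, and kidney-resident macrophages are known for their high C1q expression. C3a and C5a attract and activate myeloid cells through C3AR1 and C5AR1.

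There were 5470 cells in the WT library and 1844 in the Vsir-/- library, with 32799550 and 18601189 unique molecular identifiers (UMIs, each of which stands for 1 captured transcript), respectively. The libraries shared 5 cell barcodes, and Vsir itself had 4278 UMIs in the WT library and 8 in the Vsir-/- library. The authors named 16 clusters, of which R1 (resident), M2-like R2 and Other R2 (both infiltrating) are macrophages. A list of 6 macrophage markers, chosen here, summed to between 1300 and 2819 UMIs per 1000000 in these macrophage clusters. In neutrophils it summed to 1485 in the WT library and 1069 in the Vsir-/- library, so it did not set WT Other R2 apart from neutrophils. Marker lists of other cells moved with the library. The 14 kidney tubule markers summed to between 1064 and 12218 UMIs per 1000000 in the clusters of the Vsir-/- library, and to at most 24.5 in those of the WT library. The 5 neutrophil markers summed to 4316 UMIs per 1000000 in the M2-like R2 cluster of the WT library and to 242 in that of the Vsir-/- library. Below, a level is given as CPM, the UMIs of a gene per 1000000 UMIs of the cells of a cluster, with an exact 95% Poisson interval. A ratio is the log2 of the level in Vsir-/- mice over that in WT mice, with an exact conditional 95% interval. Shares of cells have exact Clopper-Pearson intervals, and each interval describes counting error alone, with nothing about the spread between mice. For a bulk of cells summed in this way, fewer transcribing cells and less RNA per cell cannot be told apart unless the values per cell are given.

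The 3 C1q genes lie side by side on chromosome 4, and the regions before their start sites were read from RefSeq for comparison with that of C3, which had a different pattern over the clusters. RefSeq promoters on the GRCm38.p6 assembly were matched for 6 of the 7 genes, all but C1qa. The deposited counts were made on another build according to the submitters' processing notes, and no coordinate of theirs was used. The 250 bases before the start of C1qb, C1qc and C3 are printed here, 5′ to 3′ along the gene. In C1qb and C1qc the capitals mark GAGGAA or its reverse complement, a core that the myeloid factor PU.1 can bind, and in C3 they mark TTGCNNAA on either strand, which resembles the site of C/EBP factors. The marked matches do not overlap one another.
C1qb (chr4:136886201-136886450, minus strand): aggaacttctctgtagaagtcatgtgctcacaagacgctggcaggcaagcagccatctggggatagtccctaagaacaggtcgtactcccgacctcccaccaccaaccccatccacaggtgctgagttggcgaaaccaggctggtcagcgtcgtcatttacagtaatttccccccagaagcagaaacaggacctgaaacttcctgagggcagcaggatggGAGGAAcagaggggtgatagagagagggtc
C1qc (chr4:136892915-136893164, minus strand): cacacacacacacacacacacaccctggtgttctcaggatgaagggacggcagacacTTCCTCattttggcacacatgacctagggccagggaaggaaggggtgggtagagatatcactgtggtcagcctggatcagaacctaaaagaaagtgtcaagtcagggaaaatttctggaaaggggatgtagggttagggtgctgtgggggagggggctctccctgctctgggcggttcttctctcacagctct
C3 (chr17:57228137-57228386, minus strand): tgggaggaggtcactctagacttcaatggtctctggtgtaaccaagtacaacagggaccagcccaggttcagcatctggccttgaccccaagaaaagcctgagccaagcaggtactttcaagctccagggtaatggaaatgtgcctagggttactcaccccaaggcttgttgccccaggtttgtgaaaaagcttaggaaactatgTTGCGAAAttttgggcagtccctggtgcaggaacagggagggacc
GAGGAA was found once in C1qb, where its first base in this reading was 30 bases before the start, and once in C1qc, on the opposite strand and 193 bases before the start. It was found in none of the windows of C3, C3ar1, C5ar1 and Cfp, and in 23.3% of the 32851 windows of this length in the table. TTGCNNAA was found once, in C3, 45 bases before the start, and in 9.56% of all windows. These matches describe the letters of the windows and were not tested as binding sites.

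C1q transcripts were concentrated in R1 macrophages in both genotypes. In R1 macrophages, C1qa (the A chain) had 4570 CPM (interval 4413–4732) in WT mice and 5366 CPM (5253–5481) in Vsir-/- mice. C1qb, the B chain, had 4082 CPM (3934–4236) and 5044 CPM (4934–5155), respectively. C1qc, the C chain, had 2574 CPM (2456–2697) in WT mice and 3454 CPM in Vsir-/- mice. All 3 chains were thus abundant in R1 macrophages of both libraries. The 116 WT cells and 237 Vsir-/- cells of this cluster held 88.6% and 87.97% of all C1q UMIs of their libraries. Since the clusters were made from these same transcripts, the height of R1 above other clusters is a description.

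The summed C1q level of R1 macrophages was 11227 CPM in WT mice and 13864 CPM in Vsir-/- mice, a log2 ratio of 0.30 (0.27–0.34). The ratio was 0.06 (−0.03 to 0.15) after every cell was thinned to 1000 UMIs, and 0.02 when every cell was given the same weight, so this difference was not seen under both settings. Per cell, the median was 68 C1q UMIs in WT mice, with quartiles of 42.8 and 91.5, and 88 in Vsir-/- mice, with quartiles of 20 and 139. The Vsir-/- cells were thus more spread out, with more cells at either end, as the plot of C1q UMIs per cell shows. Only 4 WT cells and 31 Vsir-/- cells of R1 had fewer than 10 C1q UMIs. These cells were shallow, with medians of 758.5 and 873 UMIs in all, and their summed C1q levels were 6408 CPM (4016–9702) and 5950 CPM (5134–6859). The 31 Vsir-/- cells also had tubule markers that summed to 8299 CPM, against 1984 CPM in the other R1 cells of that library, and macrophage markers that summed to 1691 CPM, against 2842 CPM. Ptprc, which encodes CD45, was found in 25.8% of these 31 cells and in 85.9% of the others, which were deeper, with a median of 6524 UMIs. As a level, Ptprc had 407 CPM (217–696) in the 31 cells and 625 CPM (586–665) in the others, with overlapping intervals. The part of other cells or free RNA in the C1q level of the 31 cells was not tested.

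**Figure D1:**
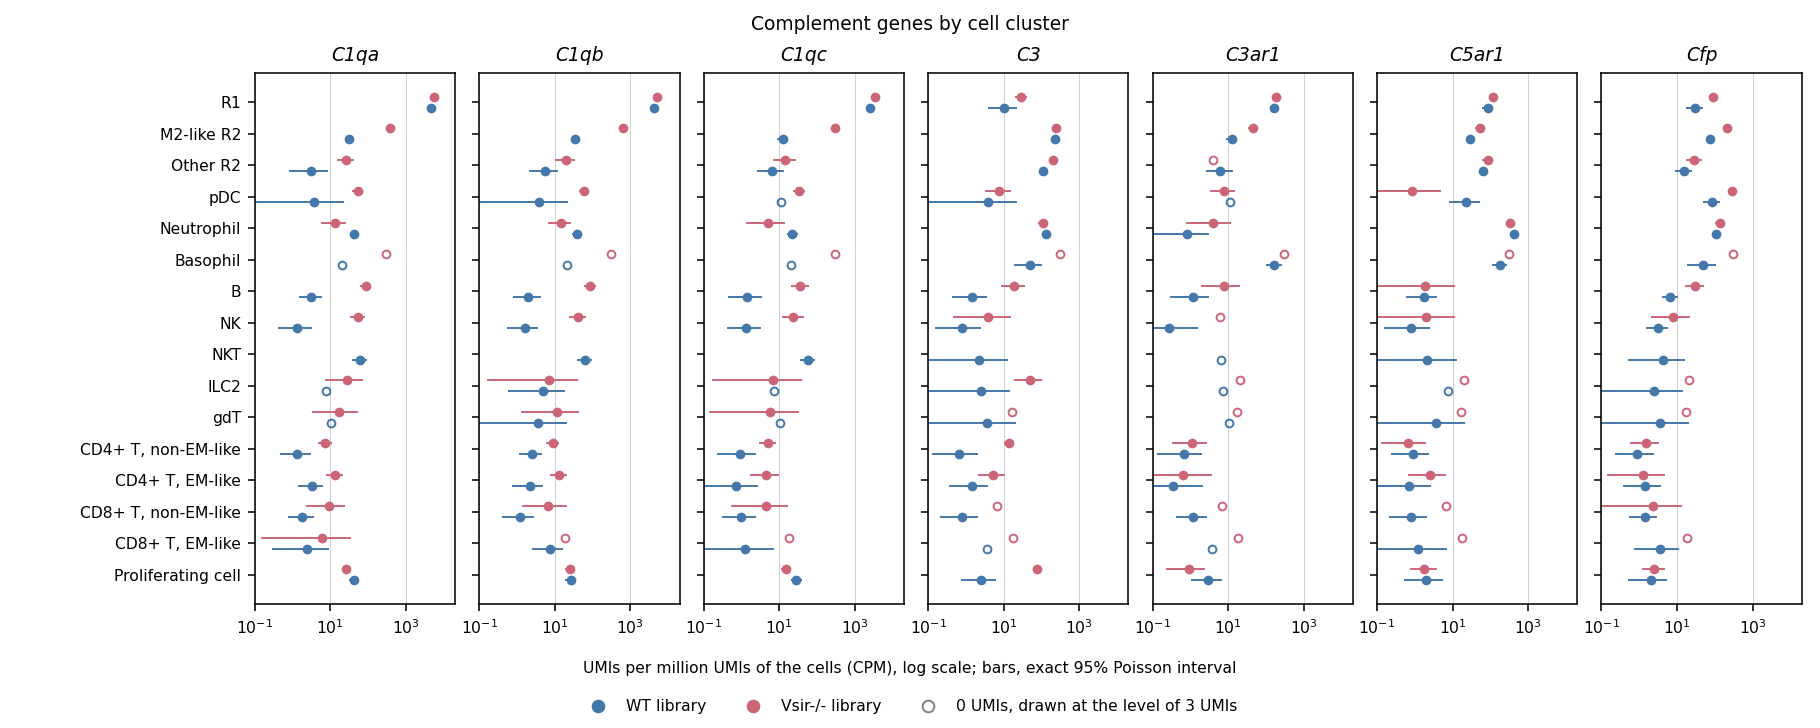
Level of each of the 7 genes in every cluster of cells, in CPM on a log scale, with the WT library in blue and the Vsir-/- library in red. Points with bars are levels with exact 95% Poisson intervals, and open circles stand for 0 UMIs, drawn at the level that 3 UMIs would give. The 3 C1q genes are highest in R1, C3 in M2-like R2, C3ar1 in R1 and C5ar1 in neutrophils in both libraries.

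In M2-like R2 macrophages, C1q transcripts were far more abundant in Vsir-/- mice than in WT mice. C1qa had 31.9 CPM (26.8–37.6) in WT mice and 378 CPM (349–408) in Vsir-/- mice. C1qb had 33.7 CPM (28.5–39.6) and 618 CPM (581–657), and its log2 ratio was 4.20 (3.95–4.46). C1qc had 12.5 CPM (9.43–16.3) in WT mice and 295 CPM in Vsir-/- mice, with a log2 ratio of 4.56 (4.16–4.99). The sum of the 3 chains was 16.5-fold higher in Vsir-/- mice, at 1292 CPM against 78.1 CPM, a log2 ratio of 4.05 (3.88–4.22). In both libraries this was far below the level of R1 macrophages.

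The difference in M2-like R2 macrophages lay in a subset of the cells. At least 1 C1q UMI was found in 5.48% (3.58–7.99%) of the 456 cells from WT mice and in 39.9% (32.4–47.7%) of the 168 from Vsir-/- mice. The median depths were similar, with 9699 and 10074 UMIs per cell. After thinning, the shares were 2.44% and 28.3%. EM-like CD4+ T cells, which should lack C1q, had shares of 2.25% in WT mice and 16.8% in Vsir-/- mice (median depths of 4903 and 5852.5 UMIs), or 0.626% and 1.66% after thinning. Their T cell markers summed to 5060 and 5129 CPM and their tubule markers to 3.21 and 2733 CPM. The raw shares varied among lymphoid clusters of the Vsir-/- library. No C1q UMI was found in 60 of 88 B cells, 50 of 67 NK cells and 13 of 19 ILC2. The same was true of 41 of 50 non-EM-like CD8+, 27 of 28 EM-like CD8+ and 24 of 28 γδ T cells. The thinned comparison used EM-like CD4+ T cells alone. The thinned share of Vsir-/- M2-like R2 macrophages was above that of these T cells. That of WT M2-like R2 macrophages had an interval (1.18–4.45%) that overlapped that of the WT EM-like CD4+ T cells (0.129–1.82%). The non-EM-like CD4+ T cell cluster was not used for this purpose, since 233 of its 349 Vsir-/- cells had no T cell transcript.

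Cells with at least 10 C1q UMIs, a limit chosen after the values were seen, were 6 of 456 in WT mice (1.32%, interval 0.484–2.84%) and 39 of 168 in Vsir-/- mice (23.2%, interval 17.1–30.3%). With a limit of 5 UMIs they were 7 and 44 cells, and with a limit of 20 UMIs 4 and 30 cells. These few cells held 91.0% (WT) and 97.2% (Vsir-/-) of the C1q UMIs of the cluster. The 39 Vsir-/- cells were no deeper than the others, with medians of 9393 and 10414 UMIs in all, whereas the 6 WT cells were, with medians of 16049 and 9561. The neutrophil markers of the 6 WT cells summed to 10788 CPM, against 4148 CPM in the other WT cells of the cluster. Doublets were not removed, and their part in the C1q-rich cells of either library was not tested. The other cells had a summed C1q level of 7.24 CPM in WT mice and 46.8 CPM in Vsir-/- mice, a log2 ratio of 2.69 (2.05–3.37). These cells were set apart by their C1q count itself. Vsir-/- cells with fewer than 10 C1q UMIs had levels on either side of 46.8 CPM in clusters other than R1. The level was 106 CPM in B cells, 59.5 CPM in Other R2, 41.3 CPM in ILC2 and 34.2 CPM in pDC. It was 33.98 CPM in NK cells, 33.9 CPM in γδ T cells, 32.2 CPM in neutrophils and 30.4 CPM in EM-like CD4+ T cells. Lower levels were found in non-EM-like CD8+ (20.4 CPM) and CD4+ T cells (18.8 CPM), proliferating cells (16.6 CPM) and EM-like CD8+ T cells (6.02 CPM). The part of free RNA in these levels was not tested. The richest WT cell alone held 29.7% of the 343 C1q UMIs of the WT cluster, and the richest Vsir-/- cell 7.58% of 2164.

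**Figure D2:**
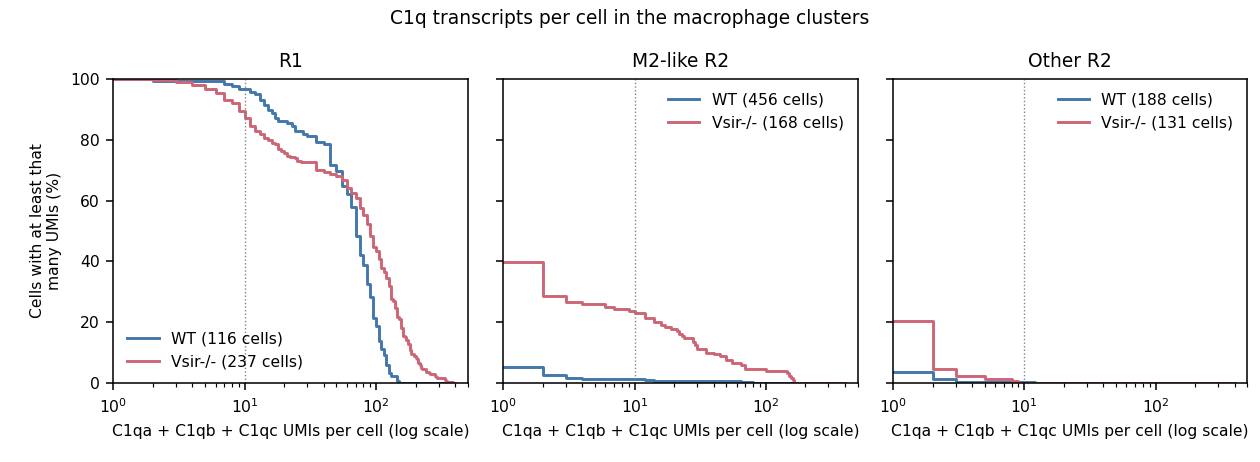
Share of cells (%) with at least a given number of C1qa, C1qb and C1qc UMIs together, on a log axis, in the 3 macrophage clusters of the WT library (blue) and the Vsir-/- library (red). The dotted line is at 10 UMIs. In M2-like R2, 1.32% of WT cells and 23.2% of Vsir-/- cells reach it, whereas 96.6% of WT and 86.9% of Vsir-/- R1 cells do.

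The chains were present in different proportions in the macrophage clusters of Vsir-/- mice. In R1 macrophages, C1qa made up 38.7% (38.1–39.4%) of the C1q UMIs, C1qb 36.4% (35.7–37.02%) and C1qc 24.9%. In M2-like R2 macrophages, the shares were 29.3% (27.3–31.2%) for C1qa, 47.9% (interval from 45.8%) for C1qb and 22.9% for C1qc. The intervals of C1qa and C1qb did not overlap between these clusters. They count each UMI as independent, whereas 39 cells held 97.2% of the C1q UMIs of Vsir-/- M2-like R2 macrophages. The spread between cells is thus not in these intervals. The share of C1qa in WT mice was 40.7% for R1 macrophages and 40.8% (35.6–46.2%) for M2-like R2 macrophages. For C1qb the WT shares were 36.4% (35.3–37.4%) and 43.1% (37.8–48.6%), and for C1qc 22.9% (22.0–23.9%) and 16.0% (12.3–20.4%). The WT intervals of C1qb and C1qc did not overlap either, but 6 cells held 91.0% of the C1q UMIs of WT M2-like R2 macrophages.

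In Other R2 macrophages, C1q was rare in both genotypes. The 188 WT cells had 19 C1q UMIs (14.8 CPM, 8.93–23.2), and the 131 Vsir-/- cells had 46 (59.5 CPM, 43.6–79.4), which gave a log2 ratio of 2.00 (1.21–2.86). A single WT cell held 57.9% of the WT UMIs, and without the richest cell of each library the ratio was 2.97. The thinned shares of cells with C1q were 1.67% in WT mice and 7.09% in Vsir-/- mice, and the latter interval (3.29–13.03%) overlapped that of the EM-like CD4+ T cells of the same library (0.454–4.19%).

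Outside the macrophages, cells with at least 10 C1q UMIs held most of them in WT neutrophils, Vsir-/- pDC and proliferating cells of both libraries. They also held 71.7% of the C1q UMIs of Vsir-/- NK cells and 50.9% of those of Vsir-/- B cells. No Vsir-/- neutrophil had more than 3 C1q UMIs, and no WT cell of the pDC cluster more than 1. In neutrophils the summed C1q level was 102 CPM in WT mice (252 UMIs) and 32.2 CPM in Vsir-/- mice (25 UMIs), but 3 of the 524 WT cells held 93.3% of the WT UMIs. These 3 cells had a median of 8872 UMIs in all, against 3556 in the other WT neutrophils, and the part of doublets in them was not tested. Without cells of at least 10 C1q UMIs, the log2 ratio in neutrophils turned from −1.66 to 2.21. In the pDC cluster, 1 of 86 Vsir-/- cells held 76.7% of 172 C1q UMIs, and the 21 WT cells had 2 C1q UMIs. In the proliferating cluster, 1 cell in each library held 49.7% of 195 and 46.8% of 295 C1q UMIs. The NKT cells of WT mice differed from this, since 41.5% of 94 cells (31.4–52.1%) had a C1q UMI and none had more than 6. This cluster had no Vsir-/- cells, its 4 B cell markers summed to 2473 CPM, and the part of other cells in its C1q UMIs was not tested.

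The order of the clusters by summed C1q in WT mice was R1, NKT, neutrophil, proliferating cell and M2-like R2, where the intervals of neutrophils, proliferating cells and M2-like R2 macrophages overlapped from one to the next. In Vsir-/- mice the order was R1, M2-like R2, B, pDC and NK, and only the intervals of pDC and NK cells overlapped. The 108 C1q UMIs of the 88 Vsir-/- B cells included 44 from 1 cell.

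In lymphoid clusters, too, summed C1q was higher in the Vsir-/- library. The log2 ratio was 4.96 (4.30–5.68) in B cells, 4.80 (3.98–5.69) in NK cells and 2.36 (1.05–3.56) in non-EM-like CD8+ T cells. For CD4+ T cells it was 2.33 (1.503–3.22) in the EM-like and 2.16 (1.47–2.92) in the non-EM-like cluster. The levels behind these ratios were between 3.95 and 6.60 CPM in WT mice and between 20.4 and 206 CPM in Vsir-/- mice. Neither EM-like CD4+ nor non-EM-like CD8+ T cells had a cell with 10 C1q UMIs, and Vsir-/- B cells without such cells still had 106 CPM (79.3–138). In the B cell cluster, the B cell markers summed to 5678 CPM in WT mice and 2122 CPM in Vsir-/- mice. The macrophage markers summed there to 14.1 and 191 CPM, respectively. The EM-like CD8+ T cells had 9 and 1 C1q UMIs, and the interval of their ratio included 0. In Vsir-/- NK cells, 1 cell held 43 of the 60 C1q UMIs. Over all cells of a library, summed C1q was 268 CPM in WT mice and 1357 CPM in Vsir-/- mice, a log2 ratio of 2.34. R1 macrophages made up 2.12% of the WT cells and 12.9% of the Vsir-/- cells. The part of free RNA or RNA of other cells in the C1q levels of lymphoid clusters was not tested.

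C3, whose product is cleaved to C3a and C3b, was found mainly in the infiltrating macrophages and in neutrophils. C3 in M2-like R2 macrophages had 234 CPM (220–249) in WT mice and 248 CPM (224–273) in Vsir-/- mice, a log2 ratio of 0.08 (−0.09 to 0.25). Cells with a C3 UMI made up 67.1% in WT mice and 62.5% in Vsir-/- mice, and 18.3% and 18.2% after thinning. The R2 cells that differed most in C1q thus had C3 levels whose intervals overlapped. In Other R2 macrophages, C3 had 110 CPM (92.6–130) in WT mice and 206 CPM (175–240) in Vsir-/- mice, a log2 ratio of 0.90 (0.57–1.24). After thinning, the ratio was 0.19, with an interval that included 0, and the shares of cells with C3 were 13.3% and 17.3%. In neutrophils, C3 had 132 CPM (118–147) in WT mice and 109 CPM (87.4–135) in Vsir-/- mice. The order was thus M2-like R2, neutrophil and Other R2 in WT mice, where the intervals of the last pair overlapped, and M2-like R2, Other R2 and neutrophil in Vsir-/- mice, where those of the first pair did.

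R1 macrophages, the richest in C1q, had little C3. There were 7 C3 UMIs in WT R1 macrophages (10.1 CPM, interval 4.05–20.8) and 46 in Vsir-/- R1 macrophages (28.7 CPM, interval 21.0–38.3), a log2 ratio of 1.51 (0.35–2.90). The thinned share of R1 cells with a C3 UMI was 0% in WT mice and 1.89% in Vsir-/- mice, which rests on few cells. In R1 cells without a T cell transcript, the log2 ratio of C3 was 0.92 (−0.23 to 2.32). The part of free RNA or RNA of other cells in the C3 levels of R1 macrophages was not tested. The proliferating cluster of Vsir-/- mice had 348 C3 UMIs against 5 in WT mice. In that cluster, 123 of the 189 Vsir-/- cells had no T cell transcript, and these cells held 329 of the C3 UMIs, of which 1 cell held 122.

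Cfp, the gene of properdin, was higher in Vsir-/- mice in R1, M2-like R2, pDC and B cell clusters. In B cells it had 23 UMIs (6.60 CPM) in WT mice and 16 UMIs (30.5 CPM) in Vsir-/- mice, a log2 ratio of 2.21 (1.19–3.19). The part of free RNA or RNA of other cells in the Cfp levels was not tested. The level of Cfp in M2-like R2 macrophages was 73.1 CPM (65.3–81.5) in WT mice and 213 CPM (191–236) in Vsir-/- mice, a log2 ratio of 1.54 (1.32–1.76). The shares of these cells with a Cfp UMI were 32.7% in WT mice and 56.5% in Vsir-/- mice, and 5.87% and 14.5% after thinning. In R1 macrophages, Cfp had 30.2 CPM (18.7–46.2), of which 1 cell gave 42.9%, in WT mice and 90.6 CPM (76.4–107) in Vsir-/- mice. In the pDC cluster, Cfp had 83.1 CPM (52.1–126) in WT mice and 287 CPM (258–320) in Vsir-/- mice. The 4 conventional dendritic cell markers summed to 514 and 767 CPM in this cluster, beside 880 and 741 CPM for the 4 markers of plasmacytoid dendritic cells, and the part of this mixture was not tested. Other R2 macrophages had 15.6 CPM of Cfp (9.54–24.1) in WT mice and 28.5 CPM (17.8–43.1) in Vsir-/- mice, and neutrophils had 108 CPM (95.1–121) and 135 CPM (111–164). In both of these clusters the intervals overlapped. The leading clusters for Cfp were neutrophil, pDC and M2-like R2 in WT mice, with intervals that overlapped from one to the next, and pDC, M2-like R2 and neutrophil in Vsir-/- mice, with intervals that did not.

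**Figure D3:**
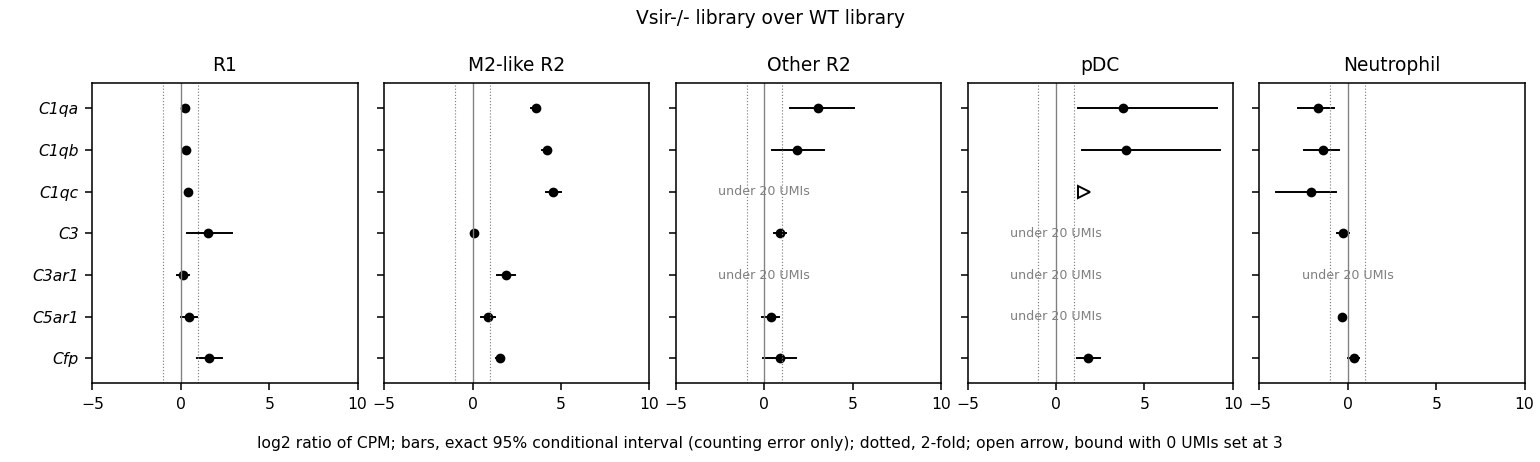
Log2 ratio of the level in the Vsir-/- library over the WT library for each of the 7 genes in 5 clusters, with exact conditional 95% intervals that cover counting error only. Dotted lines are at 2-fold, the open arrow is a bound with 0 UMIs set at 3, and genes with under 20 UMIs in both libraries together are not drawn. In M2-like R2, 5 of the 7 genes lie beyond 2-fold on the side of Vsir-/- mice, whereas C3 lies near 0. Of 9751 genes with at least 20 UMIs in this cluster, 8.11% were more than 2-fold higher and 7.61% lower. The 3 C1q genes are not independent counts, since 39 Vsir-/- cells held 97.2% of their UMIs in the Vsir-/- cluster.

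C3ar1, the receptor of C3a, had the same leading cluster as C1q. In R1 macrophages, C3ar1 had 168 CPM (139–202) in WT mice and 184 CPM (163–206) in Vsir-/- mice, a log2 ratio of 0.13 (−0.19 to 0.45), and it was found in 50.9% and 50.6% of the cells. It had, in M2-like R2 macrophages, 12.3 CPM (9.23–16.04) in WT mice and 45.4 CPM (35.7–56.8) in Vsir-/- mice, a log2 ratio of 1.88 (1.36–2.41). In Other R2 macrophages, there were 8 UMIs in WT mice and 0 of 772742 UMIs in Vsir-/- mice, which allows a level of up to 3.88 CPM. The 25 basophils of WT mice had 165 CPM (106–246), with C3ar1 in 52.0% of the cells, and this interval overlapped that of WT R1 macrophages. The 2 basophils of Vsir-/- mice had 0 UMIs of C3ar1, which was not informative at their depth.

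C5ar1, the receptor of C5a, was highest in neutrophils in both genotypes. It had 422 CPM (397–448) in WT neutrophils and 337 CPM (298–381) in Vsir-/- neutrophils, a log2 ratio of −0.32 (−0.52 to −0.13), and it was found in 79.4% and 74.7% of the cells. After thinning, the ratio was −0.11 (−0.50 to 0.26) and the shares were 38.4% and 33.3%. In R1 macrophages, C5ar1 had 84.9 CPM (64.6–110) in WT mice and 116 CPM (99.5–133) in Vsir-/- mice. In Other R2 macrophages, the levels were 65.6 CPM (52.3–81.2) and 84.1 CPM (64.9–107). In M2-like R2 macrophages, they were 28.9 CPM (24.1–34.4) and 53.1 CPM (42.7–65.4), a log2 ratio of 0.88 (0.47–1.28). This ratio was 0.44 (−0.83 to 1.61) after thinning and 0.46 with every cell weighted the same. In R1 macrophages the ratio was 0.44 (0.01–0.89), and whether the clusters differed in it was not tested. The WT basophils had 179 CPM (117–262) of C5ar1.

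The 2 receptors were concentrated in the same M2-like R2 cells as C1q in Vsir-/- mice, and properdin less so. The 39 cells with at least 10 C1q UMIs had 150 CPM of C3ar1 (113–195) and the other 129 cells 15.4 CPM (9.38–23.7), a log2 ratio between these cells of 3.29 (2.53–4.10). For C5ar1 the levels were 180 CPM (139–228) and 16.9 CPM (10.6–25.6), a log2 ratio of 3.41 (2.70–4.18). For Cfp they were 400 CPM (338–469) and 159 CPM (138–182), a log2 ratio of 1.33 (1.02–1.64), and the other cells held 207 of the 356 Cfp UMIs. For C3 they were 290 CPM (238–350) and 236 CPM (210–264), with overlapping intervals. The interval of C3ar1 in the C1q-rich cells overlapped that of Vsir-/- R1 macrophages. Their levels of C3, C5ar1 and Cfp lay above those of Vsir-/- R1 macrophages, with intervals that did not overlap. The macrophage markers of the C1q-rich cells summed to 2427 CPM, against 1691 CPM in the other cells. Their tubule markers summed to 1263 CPM, against 1232 CPM in the other cells. Their T cell markers summed to 137 CPM (in 12.8% of the cells) and their endothelial markers to 126 CPM, against 12.3 and 39.2 CPM in the other cells, and the part of such RNA in these levels was not tested.

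Among the cells with fewer than 10 C1q UMIs, the genotypes were closer for C3ar1, whereas the ratio of C5ar1 changed sign. C3ar1 then had a log2 ratio of 0.42 (−0.40 to 1.20) between Vsir-/- and WT mice, against 1.88 over the whole cluster. C5ar1 had one of −0.69 (−1.42 to −0.03), against 0.88 over the whole cluster, and it rests on 117 WT and 22 Vsir-/- UMIs. C5ar1 was highest in neutrophils, and the neutrophil markers summed to 4148 CPM in these WT cells and to 256 CPM in these Vsir-/- cells. The part of neutrophil RNA in the C5ar1 values was not tested. C3 had a ratio of 0.00 (−0.19 to 0.19), and Cfp was still higher in Vsir-/- mice, with a ratio of 1.11 (0.85–1.36).

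**Figure D4:**
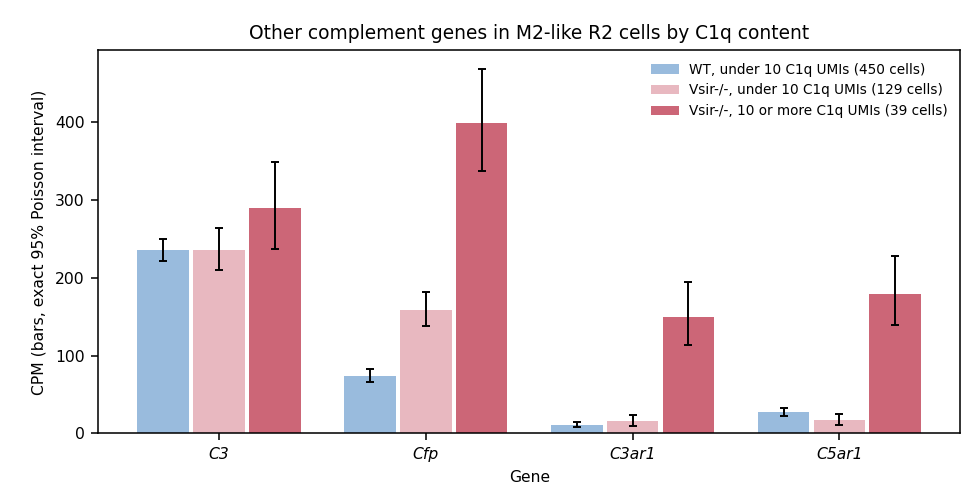
Levels of C3, Cfp, C3ar1 and C5ar1 (CPM, with exact 95% Poisson intervals) in M2-like R2 macrophages with fewer than 10 C1q UMIs in WT mice (450 cells, blue) and Vsir-/- mice (129 cells, light red), and with at least 10 in Vsir-/- mice (39 cells, red). C3ar1 reaches 150 CPM and C5ar1 180 CPM in the C1q-rich cells, whereas C3 differs little among the 3 sets of cells.

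Counted over the 7 genes in the macrophage, neutrophil and pDC clusters, the largest number past 2-fold was found in M2-like R2 macrophages. All 7 had at least 20 UMIs there, and 5 of them (C1qa, C1qb, C1qc, C3ar1 and Cfp) were more than 2-fold higher in Vsir-/- mice and none lower, with a median log2 ratio of 1.88. Of the 9751 genes with as many UMIs in this cluster, 8.11% were more than 2-fold higher and 7.61% lower, and their median log2 ratio was 0.01. In R1 macrophages, 2 of the 7 genes (C3 and Cfp) were more than 2-fold higher and none lower, where 13.6% of all genes were higher and 8.78% lower. The count of C3 there rests on 7 WT and 46 Vsir-/- UMIs. In Other R2 macrophages, 2 of the 5 genes with enough UMIs (C1qa and C1qb) were higher, where 6.71% of all genes were higher and 9.52% lower, but these 2 rest on 24 and 22 UMIs and did not pass the filter without the richest cell of each library. In neutrophils, 3 of 6 genes (the C1q chains) were more than 2-fold lower, where 10.6% of all genes were lower and 9.99% higher, and these are the ones that rest on 3 WT cells. In the pDC cluster, all 4 genes with enough UMIs were higher, where 11.9% of all genes were higher and 10.1% lower, and the 3 C1q genes among them rest largely on 1 cell. Lymphoid clusters were not part of this count, but some had members past 2-fold as well. In B cells, C1qa, C1qb, C1qc and Cfp were higher, where 1486 of 9094 genes were higher and 1450 lower. Among non-EM-like CD4+ T cells, C1qa, C1qb, C1qc and C3 were higher, where 6014 of 12583 genes were higher and 1341 lower. The C1q chains share cells, so they are not independent counts.

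The wider pathway was read from a list of 46 other complement genes, of which 41 were in the matrix and C1rb, Cfd, C6, C8b and Vsig4 were not analysed here. In R1 macrophages, 7 of the 15 listed genes with at least 20 UMIs were more than 2-fold higher in Vsir-/- mice and 1 was lower, beside 13.6% and 8.78% of all genes. The tubule markers summed to 24.5 and 2110 CPM in WT and Vsir-/- cells of this cluster and the endothelial markers to 0 and 899 CPM, and the part of such RNA in these counts was not tested. In M2-like R2 macrophages, 3 of 15 were higher and 2 lower, beside 8.11% and 7.61% of all genes. In Other R2 macrophages 3 of 12 were higher and 2 lower, beside 6.71% and 9.52%, and in neutrophils 2 of 10 were higher and 3 lower, beside 9.99% and 10.6%. The median log2 ratio of the list was 0.69 in R1, −0.06 in M2-like R2, 0.23 in Other R2 and −0.28 in neutrophils, beside −0.01, 0.01, −0.06 and −0.06 over all genes.

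Cfb encodes factor B, the partner of C3b in the alternative convertase, and was higher in Vsir-/- mice in each macrophage cluster. It had 4.32 and 33.7 CPM in R1, 22.3 and 123 CPM in M2-like R2, and 7.03 and 136 CPM in Other R2 macrophages of WT and Vsir-/- mice, respectively. The log2 ratios were 2.97 (1.34–5.29), 2.46 (2.11–2.82) and 4.27 (3.29–5.44). Cfb also had 244 UMIs (53.1 CPM) in the non-EM-like CD4+ T cell cluster of Vsir-/- mice and 0 in that of WT mice, and 53.4 CPM in Vsir-/- B cells, and the part of RNA from other cells of that library in its macrophage levels was not tested. C4b, a classical pathway component, had 3 UMIs (4.32 CPM) in WT R1 macrophages and 95 UMIs (59.3 CPM) in Vsir-/- R1 macrophages. It had 11.4 and 6.57 CPM in M2-like R2 macrophages, with overlapping intervals.

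Among the receptors, C5ar2, the second receptor of C5a, had 77.8 CPM in WT neutrophils and 21.9 CPM in Vsir-/- neutrophils, a log2 ratio of −1.83 (−2.64 to −1.11). Itgam and Itgax encode the α chains of complement receptors 3 and 4, and Itgb2 encodes their common β chain. Itgam had 216 and 337 CPM in M2-like R2 macrophages and 40.3 and 83.7 CPM in R1 macrophages, and Itgax had 12.1 and 35.2 CPM in M2-like R2 macrophages. Itgb2 had 352 and 356 CPM in M2-like R2 macrophages, with a log2 ratio of 0.01 (−0.12 to 0.15). Cd93, once described as a C1q receptor, was higher in R1 macrophages of Vsir-/- mice, with 41.7 and 141 CPM, and in neutrophils, with 7.26 and 47.6 CPM. Endothelial cells also express Cd93, and the 5 endothelial markers summed to 0 CPM in WT and 899 CPM in Vsir-/- R1 macrophages, and to 0 and 246 CPM in neutrophils. The part of endothelial RNA in the values of Cd93 was not tested. Lrp1 and Calr, which take part in the uptake of C1q-bearing cells, had 250 and 211 CPM and 390 and 636 CPM in M2-like R2 macrophages, and neither was more than 2-fold apart in any of the 3 macrophage clusters.

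Among the regulators, Cd55, which encodes decay-accelerating factor, was lower in Vsir-/- mice. It had 140 UMIs (31.9 CPM) in M2-like R2 macrophages and 143 UMIs (112 CPM) in Other R2 macrophages of WT mice and 0 UMIs in both clusters of Vsir-/- mice. With 3 counts as the limit of each cluster, it was at least 17.8-fold and 28.7-fold lower there. It had 44 and 8 UMIs in R1 macrophages and 39.5 and 15.4 CPM in neutrophils. Its level was highest in B cells, with 544 CPM in WT mice and 133 CPM in Vsir-/- mice, and the 4 B cell markers summed to 319 and 11.3 CPM in M2-like R2 and to 1188 and 7.76 CPM in Other R2 macrophages. The part of B cell RNA in these values was not tested. Cd55 has a close copy, Cd55b, and how reads shared by both were counted is not given in the sources used here. Cr1l, which encodes a membrane regulator of C3 convertases, had 65.1 and 59.7 CPM in M2-like R2 macrophages. Clu, which encodes clusterin and is expressed in the tubule, had 0 UMIs in the 4 clusters of WT mice and 23.3 to 47.6 CPM in those of Vsir-/- mice. It had 365 CPM in the non-EM-like CD4+ T cell cluster of Vsir-/- mice, and the part of tubule RNA in its values was not tested.

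**Figure D5:**
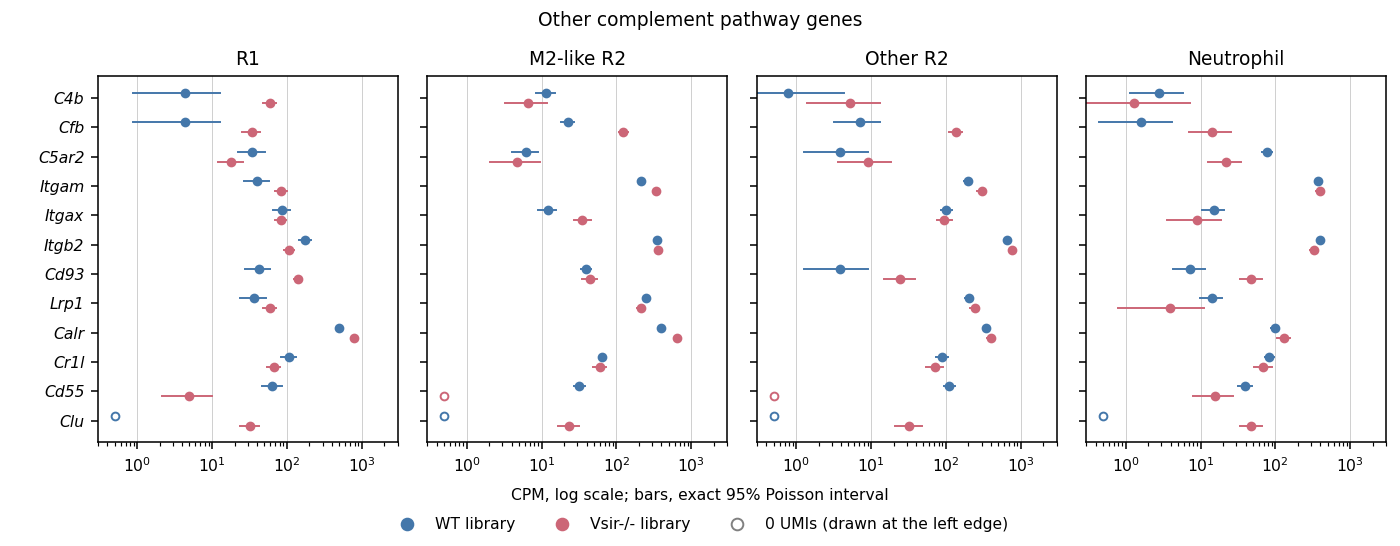
Levels of 12 listed complement genes with at least 100 UMIs in macrophages and neutrophils together (CPM, log scale, with exact 95% Poisson intervals), in 4 clusters of the WT library (blue) and the Vsir-/- library (red). Open circles are at 0 UMIs. Cfb is higher and Cd55 lower in the Vsir-/- library in all 4 clusters, and Clu has no UMI in the WT clusters.

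The profiles over clusters set C1q apart from C3. Over the 30 combinations of cluster and library with at least 100000 UMIs, and on log2(CPM + 10), Pearson's r was between 0.988 and 0.991 for the pairs of C1q chains and 0.25 for C1qa with C3. C3ar1 had an r of 0.71 with C1qa, and C5ar1 had an r of 0.70 with both C3 and Cfp. These correlations are descriptions, since the profiles share libraries and their depth. Among the 8785 genes ranked, those most like the C1q sum were Ms4a7 (r of 0.89), Ccl12, Pf4, Creb5 and Cxcl16. For C3 they were 6430548M08Rik (0.89), Sqor, Ceacam1, Gda and Nadk, and for C3ar1 they were Trf (0.86), Tbxas1, Cebpa, Tmcc3 and Ms4a7. For C5ar1 they were Nlrp3 (0.94), Trpm2, Hk3, Igsf6 and Hcar2, and for Cfp they were Plbd1 (0.92), Alox5ap, Wfdc17, Rab32 and Clec12a. Ms4a7 was the gene in both the lists of C1q and C3ar1, and it had 309 CPM in WT and 397 CPM in Vsir-/- R1 macrophages.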

How the data were processed

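Kidney cells of 1 WT and 1 Vsir-/- library (10x Genomics 3′ chemistry) were analysed. The authors made the values with Cell Ranger 3.1.0 (the submitters' processing notes name build mm9) and merged, clustered and named the cells in Seurat (version 3.2.3). Their methods state filters of at least 200 UMIs and at most 10% mitochondrial UMIs per cell. The deposited values are counts of UMIs per gene and cell, without normalization, and the deposited percent of mitochondrial UMIs served only for an alternative limit. The deposited scores, 2 coordinates of an embedding that the authors computed, were not used. UMI totals of all 7314 cells equalled the deposited ones. Removal of doublets is not given in the sources used here, and none were removed. Samples were assigned from the labels. UMIs were summed by cluster and library. With 1 library per genotype, no p-value was computed: a gene with at least 20 UMIs was counted as higher or lower past a fold of 2, with 0.5 UMIs added to each sum. Thinning drew 1000 UMIs per cell with a fixed seed, which left out 167 WT and 78 Vsir-/- cells. The genes named were the 7 members, listed complement genes with at least 100 UMIs in macrophages and neutrophils together, and the 5 genes most like each pattern among genes with at least 500 UMIs. Some genes that this rule names, or that a marker list holds, are not reported here. The members and lists were chosen with earlier results of these data known. Alternatives changed the cells kept, depth, denominator, weighting and filter. The step that computes ratios was tested on simulated Poisson counts for summed M2-like R2 cells, which hold no spread between cells. The other steps were not tested in this way. Python 3.11.15, numpy 2.4.6, scipy 1.17.1, pandas 2.3.3 and matplotlib 3.10.9 were used.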

Additional observations from a re-analysis of the deposited data

Results flagged for a closer look

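The C1q chains had opposite directions in different clusters. In neutrophils, the log2 ratios of Vsir-/- over WT mice were −1.70 for C1qa, −1.40 for C1qb and −2.11 for C1qc, whereas all 3 were above 0 in the macrophage clusters. The difference between the clusters was not tested, and the values in neutrophils rest on 3 WT cells with at least 10 C1q UMIs.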

How the results depend on the processing

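No paired analysis was possible because each genotype had 1 library. Of 50 values of the 8 planned ratios under alternative settings, 31 stayed within the counting interval and 48 kept their direction, the exceptions being C3ar1 in R1 after thinning and with equal weights. With cells thinned to 1000 UMIs, the log2 ratio was 0.058 for C1q in R1, 4.92 for C1q in M2-like R2, 0.19 for C3 in Other R2, −0.29 for C3ar1 in R1, 3.36 for C3ar1 in M2-like R2 and −0.11 for C5ar1 in neutrophils. With every cell weighted the same, it was 0.016 and 4.92 for C1q in R1 and M2-like R2, 3.33 for C1q in Other R2, −0.39 and 1.36 for C3ar1 in R1 and M2-like R2, and −0.54 for C5ar1 in neutrophils. Without the cell richest in C1q in each library, it was 4.45 in M2-like R2 and 2.97 in Other R2. In cells without a T cell transcript, C1q gave 0.12 in R1, 3.66 in M2-like R2 and 3.03 in Other R2. Without cells of at least 10 C1q UMIs (chosen after the data were seen), M2-like R2 gave 2.69 for C1q and 0.42 for C3ar1, and C1q in neutrophils turned to 2.21. The causes were not tested. The number of members more than 2-fold higher in R1 was 1 instead of 2 after thinning or without T cell transcripts, and in Other R2 it was 0 instead of 2 after thinning, with at most 5% mitochondrial UMIs, without the richest cell, or without T cell transcripts, because C1qa and C1qb then had fewer than 20 UMIs or a smaller ratio. Genes more than 2-fold apart numbered 1982 in R1 (457 with at least 100 UMIs, 6024 with no filter), 1533 in M2-like R2 (482 and 5295), 1226 in Other R2 (280 and 5312), 1485 in neutrophils (343 and 5978) and 1489 in pDC (260 and 4678). Of 258 values of the other 47 ratios of a member in a cluster, 242 kept their direction. Called values that turned were C1qa in EM-like CD4+ T cells (−0.59, thinned) and, in neutrophils, C1qb (0.31 with equal weights, 0.13 without T cell transcripts), C1qc (1.13 thinned, 0.39 with equal weights) and the C1q sum (0.19 with equal weights). Depth limits the clusters with few UMIs, such as basophils, ILC2, γδ T cells and EM-like CD8+ T cells.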

Other observations

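In the non-EM-like CD4+ T cell cluster of Vsir-/- mice, 233 of 349 cells had no T cell transcript. These cells held 63 of the 65 C3 UMIs of the cluster (18.6 CPM, interval 14.3–23.9), whereas the 116 cells with a T cell transcript had 1.64 CPM of C3 (0.199–5.93). For summed C1q, the levels in the same sets of cells were 21.6 CPM (16.9–27.2) and 19.7 CPM (12.6–29.3), with overlapping intervals.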
